A study of Mus musculus with 32 samples.

Results

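The integrated stress response was followed through 10 mRNAs, Atf4, Atf5, Atf3, Ddit3, Ppp1r15a, Ppp1r15b, Chac1, Trib3, Sesn2 and Ddit4. They were picked by gene symbol, and all 10 were among the 17757 genes counted. Polysome profiling had separated the mRNA of 4T1 spheroids (a mouse mammary carcinoma line grown as 3-dimensional aggregates) into a polysomal fraction, on more than 3 ribosomes, and a sub-polysomal fraction, on fewer than 3. The spheroids grew for 5 days in lung-like medium, and all of them carried a lentiviral short hairpin vector in a polyclonal, drug-selected population. The groups were scramble control with 700 µM added aspartate (ASP shSCR), scramble control without it (NoASP shSCR), and Grin2d silencing (ASP shGRIN2D) or Dhps silencing (ASP shDHPS), both with 700 µM aspartate. Both fractions were taken from each of 4 independent pellets per group, which makes 32 libraries of 12870563 to 25639437 counts (median 18168765). Silencing without added aspartate was not analysed here, so the effect of silencing can be read only in aspartate medium. The lowest count of any of the 10 mRNAs in a library was 74 (Atf3) and the highest 11495 (Atf4), so none was near the limit of detection.

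In the integrated stress response, kinases that sense amino acid shortage, unfolded protein, haem shortage or double-stranded RNA phosphorylate the initiation factor eIF2. Less active eIF2 is then available, most mRNAs are initiated less often, and a small group with upstream open reading frames (uORFs) in the leader is initiated more often at its main start codon. The best studied is Atf4, whose leader holds a short uORF that lets ribosomes resume scanning and a later uORF that overlaps the coding region and captures them when eIF2 is plentiful. ATF4 protein is a transcription factor that induces genes of amino acid supply and, with its partner ATF5 and its target CHOP (the product of Ddit3), genes of growth arrest and cell death. Grin2d encodes a subunit of the NMDA receptor, which responds to aspartate, and Dhps encodes the enzyme of the first step of hypusination, the modification that the translation factor eIF5A needs.

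The leaders come first, since they are what places these mRNAs in a group. In the mouse annotation (GENCODE M21, GRCm38), 7 of the 10 mRNAs had at least 1 ATG upstream of the coding region, against 49.1% of the 13361 counted genes with a coding transcript. Chac1, Trib3 and Ddit4 had none in the transcript examined, so for them the name uORF mRNA is not borne out by this annotation, and they are described as members of the same stress response. A uORF that runs into the coding region was present in Atf4 and Atf5 and in 16% of genes. The leaders of Ppp1r15b (604 bases) and Atf4 (594 bases) were longer than those of 95.6% and 95.3% of genes, whose median was 162 bases. The windows below are shown because they hold the start sites that define the Atf4 and Atf5 type of leader and the nested starts of Ddit3. Atf4 (ENSMUSG00000042406) lies at chr15:80255184-80257541, Atf5 (ENSMUSG00000038539) at chr7:44812256-44816658 and Ddit3 (ENSMUSG00000025408) at chr10:127290774-127296288. Each window has 27 bases in the direction of the mRNA, and the capitals mark the upstream ATG.
Atf4 short uORF, chr15:80255582-80255584, plus strand: cttgcggccaccATGgcgtattagagg
Atf4 overlapping uORF, chr15:80255681-80255683, plus strand: ccggcctaagccATGgcgctcttcacg
Atf5 short uORF, chr7:44816535-44816537, minus strand: tccgcccgcgcaATGgctctgtagccg
Atf5 overlapping uORF, chr7:44816404-44816406, minus strand: cttttcgccgccATGgagtcctccacc
Ddit3 first upstream ATG, chr10:127290829-127290831, plus strand: gtcgattatatcATGttgaagatgagc
Ddit3 second upstream ATG, chr10:127290838-127290840, plus strand: atcatgttgaagATGagcgggtggcag

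All 6 lie in the annotated 5′ UTR. The short uORFs of Atf4 and Atf5 have 3 codons before the stop and read ATGgcgtatTAG and ATGgctctgTAG. The overlapping uORF of Atf4 has 59 codons and covers the first 83 bases of the coding region, and that of Atf5 has 58 codons and covers 56 bases. Both Ddit3 starts share a reading frame and a stop, with 34 and 31 codons, and the stop lies 26 bases before the coding region. Atf4 had a further uORF of 36 codons, nearer the 5′ end than the other 2, that ends 364 bases before the coding region. Ppp1r15a and Ppp1r15b each had 3 uORFs, and Atf3 and Sesn2 each had 1, all of which ended before the coding region. The reference annotation holds a second gene model over the Ddit3 uORF that is not among the genes counted, so how reads were shared between the models is unknown and the Ddit3 values carry that limit.

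**Figure D1:**
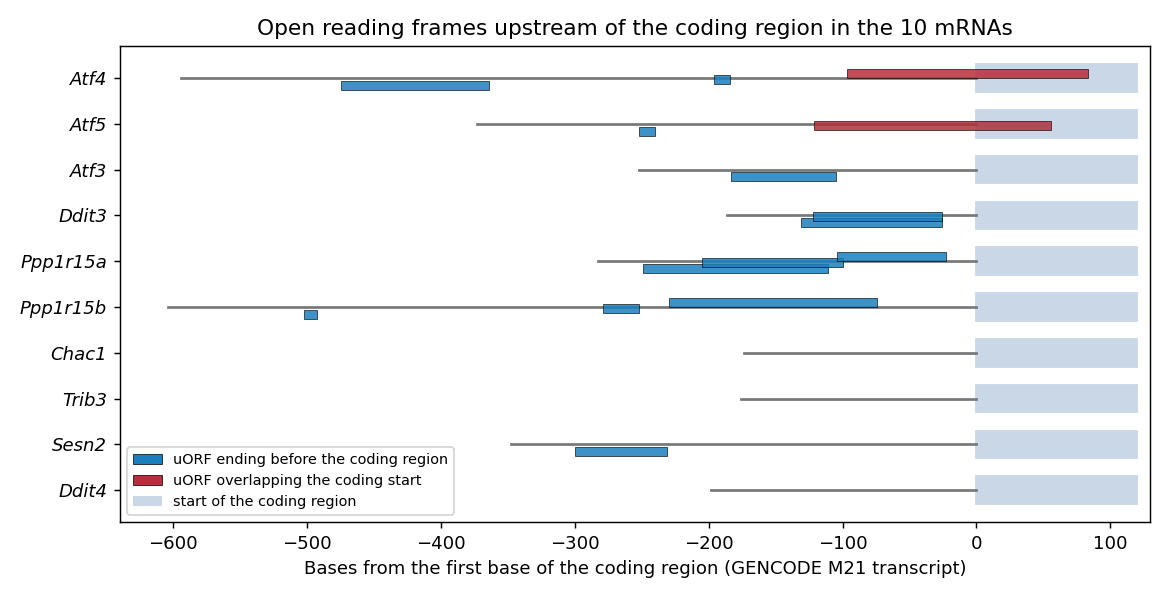
Leader of each of the 10 mRNAs, with bases from the first base of the coding region on the horizontal axis (GENCODE M21 transcript). Blue boxes are uORFs that end before the coding region, red boxes are uORFs that overlap its start, and the pale box is the start of the coding region. The red boxes appear in Atf4 and Atf5, and Chac1, Trib3 and Ddit4 have no box.

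The libraries were checked before the comparisons. Each was placed on a line from the mean sub-polysomal profile (0) to the mean polysomal profile (1) of the other conditions, over 11046 genes. On this line ASP shSCR replicate 1 gave a polysomal value of 0.372. The other 15 polysomal libraries ran from 0.777, in ASP shSCR replicate 2, to 1.27. The polysomal library of ASP shSCR replicate 1 also held high levels, in CPM (counts scaled to library size), of Atf4 (359), Atf3 (36.4) and Chac1 (58.1). The sub-polysomal library of ASP shSCR replicate 2 stood apart in another way, with 217.7 CPM of Ddit4 and 53.0 CPM of Ddit3. Its summed level of 10 hypoxia response genes was 1336 CPM, against 525, 527 and 552 CPM in the other ASP shSCR pellets, and the most abundant of them was Ndrg1. The same library was also the highest of its condition in the summed levels of immediate early genes (587 CPM against 328 to 332), of epithelial markers (4472 CPM against 2494 to 2901) and of 10 regulators and secreted factors downstream of ATF4 (1324 CPM against 928 to 976). Both pellets belong to the control that all 3 comparisons share, so main results of the 10 mRNAs that they move are given with and without them. The 6 epithelial carcinoma markers were all present, with a median of 21259 counts for Krt8. Of 15 listed markers of leukocytes, endothelium and fibroblasts, 10 were not in the table, among them Cd3e, Kdr, Cdh5, Dcn and Lum. Ptprc had a median of 4.5 counts and Pecam1 of 4, and Cd68 (185.5), Pdgfra (229) and Thy1 (2487) were counted in every library. Spheroids are bulk samples, in which fewer cells of a state and less RNA per cell cannot be told apart.

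The silenced genes were read in the same libraries. Sub-polysomal Dhps was 9.54, 10.4, 9.63 and 8.44 CPM in ASP shDHPS against 40.2, 32.2, 41.0 and 39.6 CPM in ASP shSCR. It fell by 2.01 on the log2 scale (SE 0.16, adjusted p = 1.11e-08), and polysomal Dhps fell by 1.64 (SE 0.23, adjusted p = 0.0167). The polysomal call was lost without ASP shSCR replicate 2 (−1.48, adjusted p = 0.0546) or ASP shDHPS replicate 1 or 3 (−1.59 and −1.63, adjusted p = 0.0963 and 0.111). Sub-polysomal Grin2d, an mRNA of 21 to 126 counts, was 2.45, 1.76, 2.51 and 2.73 CPM in ASP shGRIN2D against 4.01, 3.63, 6.54 and 3.18 CPM in ASP shSCR. These groups did not overlap, and the log2 difference was −0.88 (SE 0.29, adjusted p = 0.232), which did not pass the threshold of 0.05 over all genes. Polysomal Grin2d was 1.11 to 2.45 CPM in ASP shGRIN2D against 2.80 to 4.26 CPM in ASP shSCR, again without overlap. It differed by −1.14 (SE 0.33, adjusted p = 0.263). Groups without overlap were found for 5.5% of genes below polysomes and 2.68% on them. The Dhps silencing thus showed in the counts past the threshold. The Grin2d silencing showed as lower values in every silenced pellet in both fractions, and did not pass the threshold over all genes.

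How were the 10 mRNAs distributed between the fractions of each condition? Atf4, Atf5 and Ddit3, which encode transcription factors, were lower in polysomes than below them in all 4 conditions. Atf3, which also encodes one, passed in none of them, and Ddit4, an inhibitor of mTORC1 signalling, was higher in polysomes in all 4. The ratios are log2 values of polysomal over sub-polysomal CPM after normalization over all libraries, so 0 means the same share of the mRNA pool in both fractions, not the same number of molecules. In ASP shSCR, 6 of the 10 passed the test, 5 lower and 1 higher, where 39.7% of all genes passed (18.9% lower, 20.8% higher). In NoASP shSCR it was 7 (5 lower, 2 higher) where 44.3% of genes passed (20.6% lower, 23.7% higher). In ASP shGRIN2D it was 6 (5 lower, 1 higher) where 43.5% of genes passed (20.4% lower, 23% higher). In ASP shDHPS it was 5 (3 lower, 2 higher) where 43.1% of genes passed (21.3% lower, 21.8% higher). The median log2 ratio of the 10 was −0.44, −0.54, −0.52 and −0.29 in the same order of conditions, and the median of all genes lay between −0.09 and 0. Without replicate 1 the median of the 10 in ASP shSCR was −0.74, the lowest of the 4, and 7 passed.

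Atf4 was the most abundant of the group per length of transcript, at 253 ± 20.4 CPM per kilobase in sub-polysomal ASP shSCR libraries (SD, n = 4). Atf5 followed at 137 ± 15.6, below Atf4 by more than the spread. Ddit4 (59.9 ± 42.9) and Ddit3 (31.0 ± 19.1) came next, with a spread that made them overlap, and both were widened by replicate 2. The other 6 were lower, from 14.6 ± 1.83 for Ppp1r15b, 12.1 ± 2.15 for Chac1, 10.5 ± 3.16 for Trib3 and 9.84 ± 1.63 for Ppp1r15a to 5.82 ± 1.69 for Sesn2 and 4.20 ± 0.375 for Atf3. Among these 6, neighbours in the order overlapped within their SD except Ppp1r15a and Sesn2. On polysomes of the same pellets the order at the top was closer, with 134 ± 50.4 CPM per kilobase for Atf4, 111 ± 31.4 for Ddit4 and 64.1 ± 17.8 for Atf5, so Ddit4 stood beside Atf4 there.

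The log2 ratio of Atf4 was −0.75, −1.13, −1.58 and −1.21 in ASP shSCR, and −1.41, −1.41, −1.26 and −1.43 in NoASP shSCR. It was −2.22, −1.16, −1.12 and −1.47 in ASP shGRIN2D, and −1.48, −1.31, −1.05 and −1.09 in ASP shDHPS. All 16 values lay below 0, and the ranges of the 4 conditions overlapped. The fitted ratio was −1.17 (SE 0.19, adjusted p = 2e-05), −1.38 (SE 0.19, adjusted p = 1.56e-06), −1.49 (SE 0.19, adjusted p = 5.54e-07) and −1.23 (SE 0.19, adjusted p = 6.83e-06), in that order. On the linear scale, polysomes held 0.445 times the sub-polysomal share of Atf4 in ASP shSCR and 0.356 times in ASP shGRIN2D. Between 15.7% and 20.7% of all genes had a lower fitted ratio than Atf4 in the same condition. By the mean of the per-pellet ratios, which use a prior count, the share ran from 8.84% in ASP shGRIN2D to 12.8% in ASP shDHPS. Atf4 was thus in the low part of the distribution but not at its end. Without ASP shSCR replicate 1 the fitted ratio in ASP shSCR was −1.37 (adjusted p = 2.09e-06).

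Atf5, a relative of Atf4 with the same type of leader, ranged from −1.75 to −0.58 over the 16 pellets. Its fitted ratio was −1.32 (SE 0.17, adjusted p = 8.27e-07) in ASP shSCR and −1.53 (SE 0.17, adjusted p = 5.42e-08) in ASP shGRIN2D. It was −0.98 (SE 0.17, adjusted p = 2.36e-05) in ASP shDHPS, the highest of the 4 conditions. Ddit3 encodes CHOP, a factor that promotes cell death under lasting stress. Its ratio ranged from −1.95 to −0.03, with the highest value in ASP shSCR replicate 1, the pellet whose polysomal library stood apart. The fitted ratio of Ddit3 was −0.90 (SE 0.20, adjusted p = 0.000724) in ASP shSCR with that pellet and −1.26 (adjusted p = 7.54e-06) without it, and −1.34 (SE 0.20, adjusted p = 5.08e-06) in ASP shGRIN2D. Atf3, a stress-induced transcription factor downstream of ATF4, did not pass in any condition. Its ratio spread from −0.43 to 1.76 in ASP shSCR, and the fitted value of 0.38 there became −0.15 without replicate 1.

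The eIF2 phosphatase subunits differed from each other in direction. Ppp1r15a encodes GADD34, the stress-induced subunit that returns eIF2 to its active form, and its ratio lay below 0 in 16 of 16 pellets (−1.17 to −0.12). It passed in ASP shSCR at −0.60 (SE 0.18, adjusted p = 0.00765) and in ASP shGRIN2D at −0.55 (SE 0.18, adjusted p = 0.0121). It was −0.36 in NoASP shSCR (adjusted p = 0.104) and −0.37 in ASP shDHPS (adjusted p = 0.0877). Ppp1r15b encodes CReP, the constitutive subunit, and its ratio lay above 0 in 13 of 16 pellets. Its fitted ratio was between 0.15 and 0.34 and passed in no condition.

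The mRNAs downstream of ATF4 were divided too. Chac1, whose product breaks down glutathione, was lower in polysomes in NoASP shSCR (−0.72, SE 0.25, adjusted p = 0.0185) and ASP shGRIN2D (−0.88, SE 0.25, adjusted p = 0.00443). In ASP shSCR it was 1.21, −0.66, −0.59 and −1.02, and the fitted −0.28 became −0.82 (adjusted p = 0.00164) without replicate 1. Sesn2, which restrains mTORC1 when leucine is short, was lower in ASP shSCR (−0.78, SE 0.20, adjusted p = 0.00283) and NoASP shSCR (−0.55, SE 0.20, adjusted p = 0.0313). Trib3, a pseudokinase that feeds back on ATF4 and CHOP, was higher in polysomes in NoASP shSCR (0.55, SE 0.18, adjusted p = 0.0129) and ASP shDHPS (0.66, SE 0.18, adjusted p = 0.00326). Ddit4 was above 0 in 16 of 16 pellets, from 0.22 to 2.06. Its fitted ratio was 0.87 (SE 0.21, adjusted p = 0.00116), 1.15 (SE 0.21, adjusted p = 4.13e-05), 0.80 (SE 0.21, adjusted p = 0.00222) and 1.36 (SE 0.21, adjusted p = 6.3e-06), with the control first, then the control without aspartate, Grin2d silencing and Dhps silencing. In ASP shDHPS, 90.3% of all genes had a lower fitted ratio than Ddit4, and 93.8% a lower mean of the per-pellet ratios. Of the 3 mRNAs without an upstream ATG, Ddit4 and Trib3 had fitted ratios above 0 and Chac1 below 0 in all 4 conditions. Normalizing the fractions separately raised the median ratio of all genes from −0.04 to 0.13 in ASP shSCR and moved calls near the threshold for Ppp1r15a, Ppp1r15b, Chac1, Trib3 and Sesn2, while Atf4, Atf5, Ddit3 and Ddit4 kept theirs in every condition. Several calls changed when 1 pellet was left out. Ppp1r15a lost its call without ASP shSCR replicate 4 (−0.41, adjusted p = 0.112) and without ASP shGRIN2D replicate 1 (−0.48, adjusted p = 0.0677), and Trib3 without NoASP shSCR replicate 2 (0.45, adjusted p = 0.0921). In NoASP shSCR, Chac1 lost its call without replicate 2 or 3 (−0.64 and −0.61, adjusted p = 0.0798 and 0.0961). Sesn2 lost its call there without replicate 1, 3 or 4 (−0.61, −0.54 and −0.41, adjusted p from 0.0509 to 0.185).

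**Figure D2:**
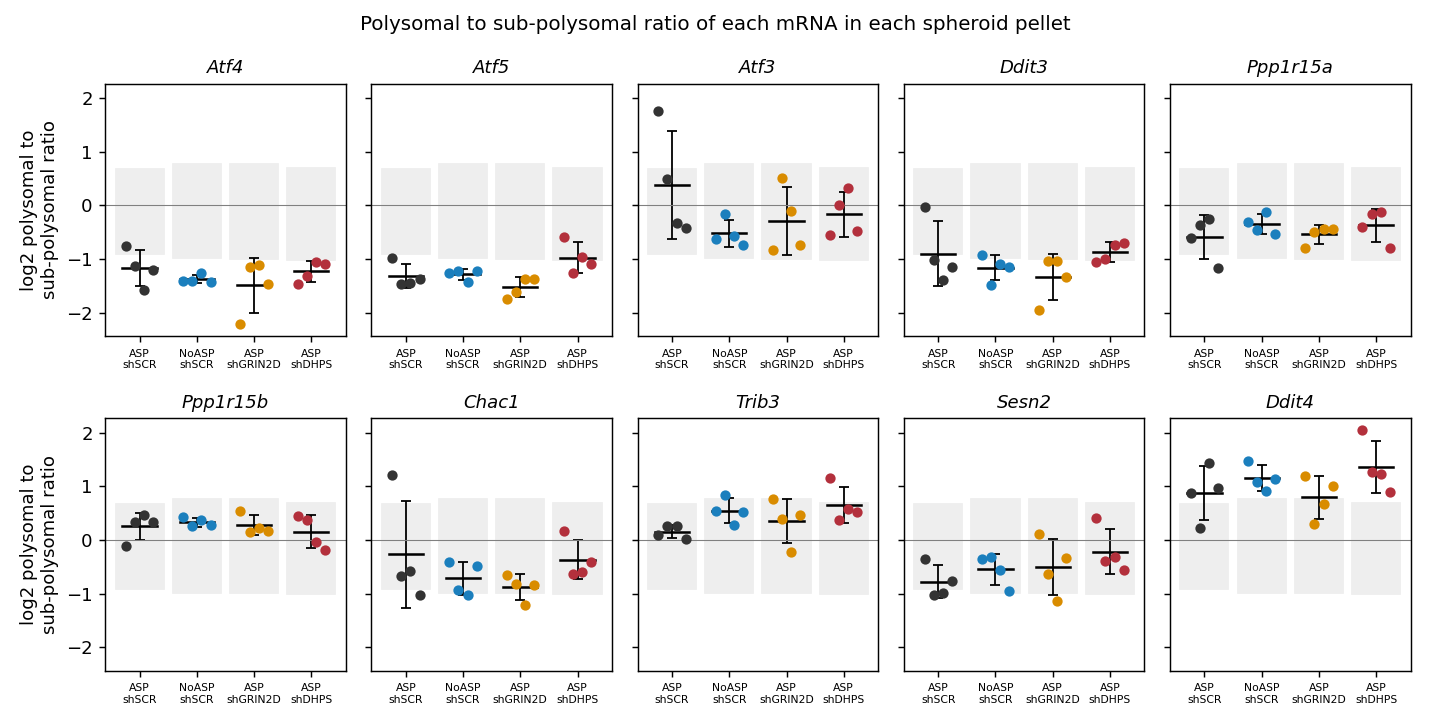
Log2 polysomal to sub-polysomal ratio of each mRNA, 1 panel per mRNA and 1 point per pellet (replicates 1 to 4 from left to right), with the mean and SD of each condition. Grey boxes span the lower to upper quartile of the fitted ratios of all 17757 genes in that condition. The points of Atf4, Atf5, Ddit3 and Ppp1r15a all lie below 0 and those of Ddit4 all above 0, and the conditions overlap in most panels.

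Did aspartate or silencing shift the mRNAs between fractions? None of the 10 passed the test of the difference in ratio against ASP shSCR, whether aspartate was left out or Grin2d or Dhps was silenced. Over all genes, edgeR called 0 (0%) for NoASP shSCR, 0 (0%) for ASP shGRIN2D and 37 (0.208%) for ASP shDHPS, and 343, 571 and 2416 genes had an unadjusted p under 0.05. The 37 became 28, 1, 33 and 0 when ASP shSCR replicates 1 to 4 were left out in turn, and 0, 83, 0 and 0 for those of ASP shDHPS. A DESeq2 Wald test on the same design also called 0 of the 10 in each comparison. For Atf4 the difference was −0.21 (95% interval −0.75 to 0.34) without aspartate, −0.32 (−0.87 to 0.23) after Grin2d silencing and −0.06 (−0.61 to 0.48) after Dhps silencing. Without ASP shSCR replicate 1 these were −0.05, −0.14 and 0.11, and the Grin2d value was −0.12 without ASP shGRIN2D replicate 1. After Dhps silencing, Atf5 differed by 0.34 (−0.14 to 0.82), with a range of 0.21 (without ASP shDHPS replicate 1) to 0.49 (without ASP shSCR replicate 1). Ddit3 differed by 0.02 (−0.55 to 0.60), and by 0.35 without ASP shSCR replicate 1. The median difference of the 10 was 0.06, −0.14 and 0.12 in the same order, against 0.02, 0.01 and −0.01 for all genes. Without ASP shSCR replicate 1 it was 0.11, −0.07 and 0.39.

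Against ASP shSCR and before adjustment over all genes, Atf3 had a difference whose 95% interval left out 0. Trib3 and Sesn2 each had at least 1 whose interval reached just past 0. Atf3 differed by −0.91 (95% interval −1.72 to −0.10, adjusted p = 1 over all genes) in NoASP shSCR, and by −0.42 without ASP shSCR replicate 1. Trib3 had ratios of 0.09, 0.25, 0.26 and 0.01 in ASP shSCR and of 0.54, 0.84, 0.28 and 0.53 in NoASP shSCR. In ASP shDHPS they were 1.15, 0.37, 0.58 and 0.52. The ASP shSCR values thus lay below those of both groups, as happened in either direction for 1.76% of genes in the first comparison and 6.86% in the second. The fitted Trib3 differences were 0.39 (−0.12 to 0.91) and 0.50 (−0.01 to 1.01). For Sesn2 the difference after Dhps silencing was 0.57 (−0.02 to 1.16), and leaving out 1 pellet moved it to between 0.36 (ASP shDHPS replicate 1) and 0.75 (ASP shSCR replicate 1, adjusted p = 0.252). Between the silenced groups, the ratios of Atf5 and Chac1 in ASP shDHPS lay above all those in ASP shGRIN2D, where 4.52% of genes had groups without overlap and the test called 1 gene (0.00563%). The fitted differences there were 0.55 (0.07 to 1.03, adjusted p = 0.679 in edgeR's test) for Atf5 and 0.51 (−0.19 to 1.22) for Chac1.

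What happened to the amount of each mRNA below polysomes? After Dhps silencing, sub-polysomal Atf3 rose and sub-polysomal Ddit4 fell, and the other 8 did not pass. Over all genes 251 (1.41%) passed in this comparison, 78 higher (0.439%) and 173 lower (0.974%), and groups without overlap were found for 9.39%. Leaving out 1 pellet lowered the 251 by over 1.5 times for ASP shSCR replicates 1 (136) and 2 (80) and for ASP shDHPS replicates 1 to 4 (108, 143, 109 and 91). Atf3 was 20.4, 17.0, 18.5 and 21.2 CPM in ASP shDHPS against 8.07, 7.81, 8.0 and 9.43 CPM in ASP shSCR. Every silenced pellet held more than every control pellet, and the fitted rise was 1.21 on the log2 scale (SE 0.24, 95% interval 0.72 to 1.70, adjusted p = 0.00773). Leaving out each pellet in turn kept it between 1.16 and 1.28 and past the threshold. The level in NoASP shSCR was 5.27, 5.77, 14.7 and 11.4 CPM, below every ASP shDHPS value, with a difference of 1.05 between these groups (SE 0.24, adjusted p = 0.0503). In ASP shGRIN2D it was 11.7, 9.59, 12.3 and 16.7 CPM, above all ASP shSCR values and below all ASP shDHPS values, and neither difference passed (0.59 from ASP shSCR, adjusted p = 0.342, and 0.62 from ASP shDHPS, adjusted p = 0.315). Groups of ASP shGRIN2D did not overlap those of ASP shSCR for 5.5% of genes and those of ASP shDHPS for 6.6%. Between ASP shDHPS and NoASP shSCR the share was 4.93%.

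Ddit4 was 42.2, 48.3, 47.1 and 56.4 CPM in sub-polysomal ASP shDHPS libraries against 72.1, 217.7, 58.7 and 72.3 CPM in ASP shSCR. The groups did not overlap, and the fitted value fell by 1.12 (SE 0.28, adjusted p = 0.038). This call rested on ASP shSCR replicate 2, without which the difference was −0.49 (adjusted p = 0.364). The call was also lost when any of the 4 ASP shDHPS pellets was left out (adjusted p from 0.0802 to 0.139). The difference then stayed about as large, between −1.05 and −1.19. The hypoxia response genes, among which Ddit4 is often counted, were high in the library of ASP shSCR replicate 2 too, with a sum of 1336 CPM. In ASP shDHPS libraries the sum was 585 to 682 CPM, above the 525 to 552 CPM of the other ASP shSCR pellets, whereas Ddit4 in ASP shDHPS was below those pellets. NoASP shSCR replicate 2 had 134.2 CPM of Ddit4 and a hypoxia sum of 1004 CPM, where the other NoASP shSCR pellets had 65.4 to 68.2 CPM and 508 to 575 CPM. The part of hypoxia in the Ddit4 values was not tested.

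Chac1 passed below polysomes against the groups other than ASP shSCR. It was 29.0, 29.9, 31.8 and 28.2 CPM in ASP shDHPS, 19.0, 23.8, 20.9 and 15.4 CPM in ASP shSCR, 15.6, 16.6, 20.9 and 15.6 CPM in NoASP shSCR, and 18.7, 15.5, 22.4 and 14.3 CPM in ASP shGRIN2D. All ASP shDHPS values thus lay above all others. It rose against NoASP shSCR by 0.79 (SE 0.17, adjusted p = 0.032) and against ASP shGRIN2D by 0.75 (SE 0.17, adjusted p = 0.0272). The epithelial marker Krt14 fell in the first of these by 0.65 (adjusted p = 0.0455), and its difference in the second was −0.49 (adjusted p = 0.145). The Chac1 calls against NoASP shSCR and ASP shGRIN2D were not run under the alternatives or with pellets left out. Against ASP shSCR the Chac1 difference was 0.59 (SE 0.17, adjusted p = 0.078), and 0.60 (adjusted p = 0.0164) in edgeR with a replicate block over conditions. DESeq2 gave Chac1 an adjusted p of 0.0257, called Atf3 and Chac1 in this comparison and gave Ddit4 an adjusted p of 0.0599. The main edgeR fits of these comparisons, in the order given, called 48 (0.27%), 129 (0.726%) and 251 (1.41%) of all genes. For the last of them, ASP shDHPS with ASP shSCR, the replicate block called 758 genes and DESeq2 called 651.

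The same 5 mRNAs, Atf3, Ddit3, Ppp1r15a, Chac1 and Trib3, had every sub-polysomal ASP shDHPS value above every ASP shGRIN2D value and above every NoASP shSCR value. Groups without overlap were found for 6.6% and 4.93% of all genes in these pairs, whose comparisons share the ASP shDHPS libraries. Ddit4 lay the other way in the second pair, with all ASP shDHPS values (42.2 to 56.4 CPM) below those of NoASP shSCR (65.4 to 134.2 CPM) and a difference of −0.78 (SE 0.28, adjusted p = 0.387). Of the 5, Chac1 was the one that passed edgeR's test in these pairs. Ppp1r15a, for example, was 26.6, 25.9, 31.6 and 31.8 CPM in ASP shDHPS and 15.1, 19.9, 19.9 and 22 CPM in NoASP shSCR, a difference of 0.59 (SE 0.16, adjusted p = 0.134). Ddit3 was 31.1, 35.6, 39.1 and 31.0 CPM in ASP shDHPS and 18.3, 53.0, 18.5 and 20.6 CPM in ASP shSCR. The difference was 0.31 (SE 0.26, adjusted p = 0.581) with ASP shSCR replicate 2 and 0.84 (adjusted p = 0.0532) without it. Atf4 itself stayed between 349 and 485 CPM in all 16 sub-polysomal libraries, and its difference after Dhps silencing was 0.01 (95% interval −0.31 to 0.33).

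None of the 10 passed below polysomes when aspartate was left out or Grin2d was silenced, where edgeR called 0 (0%) and 56 (0.315%) of all genes and 871 and 1955 genes had an unadjusted p under 0.05. The 56 became 29 without ASP shSCR replicate 2 and 23 without ASP shGRIN2D replicate 4. Without aspartate 8 of the 10 had a difference below 0, with a median of −0.28 against −0.0011 for all genes. Without ASP shSCR replicate 2 the median of the 10 was −0.11, and 4 of them had a difference above 0. DESeq2 called 1 gene without aspartate, which was none of the 10. After Grin2d silencing, Ppp1r15b was 112, 89.4, 105 and 112 CPM against 87.1, 66.4, 87.5 and 85.7 CPM in ASP shSCR. These groups did not overlap, as for 5.5% of genes, and the difference was 0.36 (SE 0.14, adjusted p = 0.326). After Dhps silencing Ppp1r15b was 109, 91.5, 101 and 109 CPM, also above all ASP shSCR values, with a difference of 0.33 (SE 0.14, adjusted p = 0.249). Between ASP shGRIN2D and NoASP shSCR, where 52 genes (0.293%) passed below polysomes and 4 (0.0225%) on them, none of the 10 passed in either fraction. The sub-polysomal values of Atf5 and Ppp1r15a in ASP shGRIN2D lay above all those of NoASP shSCR and those of Ddit4 below, where 4.92% of genes had groups without overlap.

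**Figure D3:**
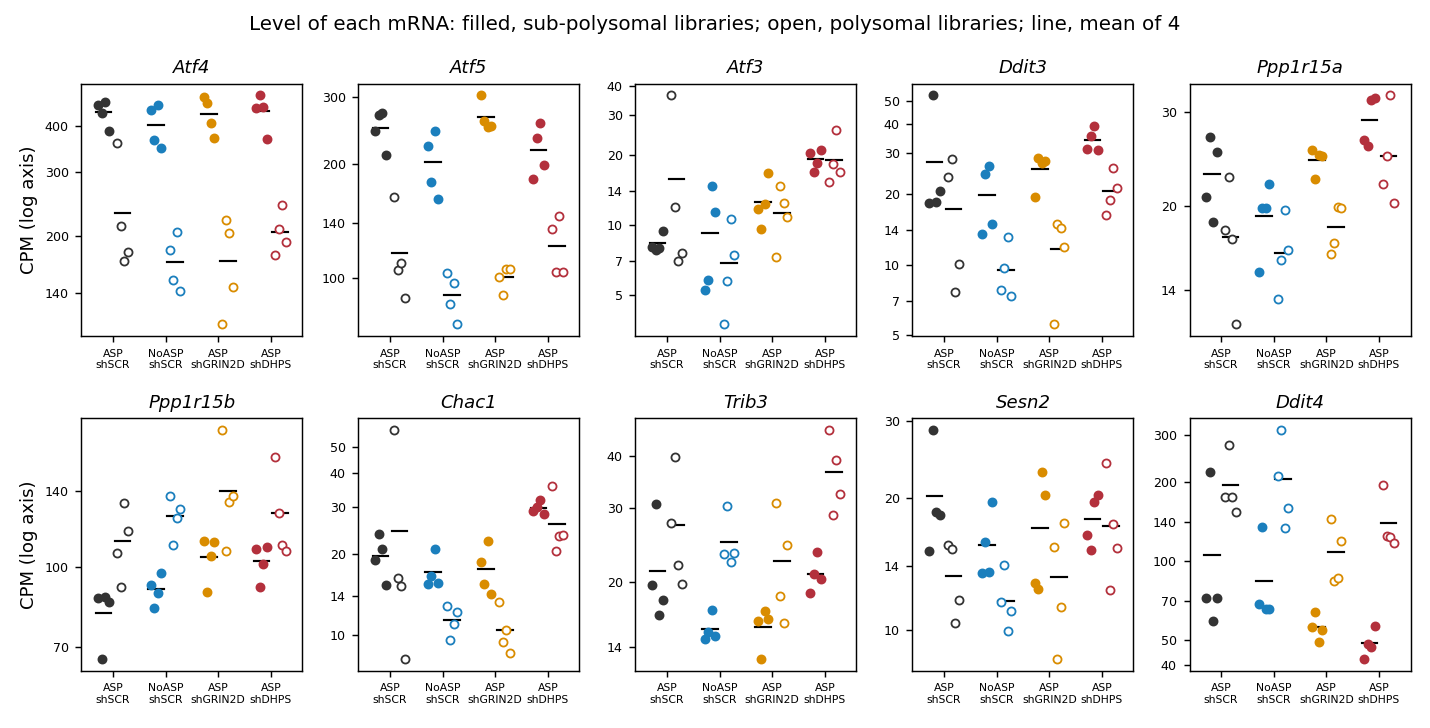
Level of each mRNA in CPM on a log axis, 1 panel per mRNA, with a filled point for each sub-polysomal library, an open point for each polysomal library and a line at the mean of the 4 libraries. Axis ranges differ between panels. The filled ASP shDHPS points of Atf3 and Chac1 lie above the filled points of the other conditions, and 1 filled ASP shSCR point of Ddit4, at 217.7 CPM, lies far above the rest.

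On polysomes, none of the 10 passed against ASP shSCR in any comparison. Over all genes, edgeR called 0 (0%) without aspartate, 3 (0.0169%) after Grin2d silencing and 30 (0.169%) after Dhps silencing, and 1376, 1608 and 2905 genes had an unadjusted p under 0.05. The 3 became 0 without ASP shSCR replicate 4 or ASP shGRIN2D replicate 1 or 3, and up to 98 without ASP shSCR replicate 3. The 30 became 131, 0, 304 and 1 when ASP shSCR replicates 1 to 4 were left out in turn, and 0, 13, 0 and 14 for those of ASP shDHPS. Polysomal Atf4 was 359, 214, 171 and 182 CPM in ASP shSCR, 183, 153, 206 and 142 CPM in NoASP shSCR, 115, 222, 204 and 146 CPM in ASP shGRIN2D, and 178, 209, 243 and 193 CPM in ASP shDHPS. The highest was ASP shSCR replicate 1, and the other 15 ran from 115 to 243 CPM. Its lead was smaller before the normalization factor. Atf4 was 5139 of 20583300 counts there, 5228 of 22075700 in ASP shGRIN2D replicate 2 and 4125 of 17935000 in ASP shDHPS replicate 3. The difference after Dhps silencing was −0.17 (95% interval −0.69 to 0.35), and 0.13 without ASP shSCR replicate 1.

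That pellet set the sign or size of several polysomal differences. Chac1 was 58.1 CPM in it and 16.3, 15.3 and 8.16 CPM in the other ASP shSCR pellets, and its difference after Dhps silencing was 0.08 with it and 0.97 (adjusted p = 0.0807) without it. Polysomal Atf3 was 36.4 CPM in it and 12, 7.02 and 7.55 CPM in the others, with differences of 0.29 and 1.11 (adjusted p = 0.117). The median difference of the 10 after Dhps silencing was 0.21 with and 0.44 without that pellet, and 0 of the 10 passed either way. Against ASP shGRIN2D, where 15 genes (0.0845%) passed, the polysomal ASP shDHPS values of Atf3, Ddit3, Ppp1r15a and Chac1 lay above all ASP shGRIN2D values, as happened in either direction for 4.73% of genes, and none of the 10 passed. Between ASP shDHPS and NoASP shSCR, where no pellet of that control takes part, the ASP shDHPS values of Atf5, Atf3, Ddit3, Ppp1r15a and Chac1 lay above all NoASP shSCR values. This held for 9.57% of genes in either direction. The differences ran from 0.43 for Atf5 to 1.47 for Atf3, 7 of the 10 had an unadjusted p under 0.05, as 2204 genes (12.4%) did, and none passed after adjustment (lowest adjusted p = 0.149, Atf3), where 36 genes (0.203%) did. The polysomal sum of the leukocyte markers in the table (2 of 6 listed, Cd68 being the more abundant) also lay apart there, at 20.01 to 28.0 CPM in ASP shDHPS and 9.35 to 15.7 CPM in NoASP shSCR. It was 11.2 to 13.7 CPM in ASP shSCR, again below every ASP shDHPS value, while Ptprc, which defines leukocytes, had the median of 4.5 counts given above. The part of such cells in these differences was not tested. Polysomal Ddit4 in ASP shGRIN2D, at 143.5, 83.9, 85.7 and 118.5 CPM, lay below all ASP shSCR values (153.8 to 275.9 CPM), as in either direction for 2.68% of genes, with a difference of −0.85 (SE 0.28, adjusted p = 0.306).

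**Figure D4:**
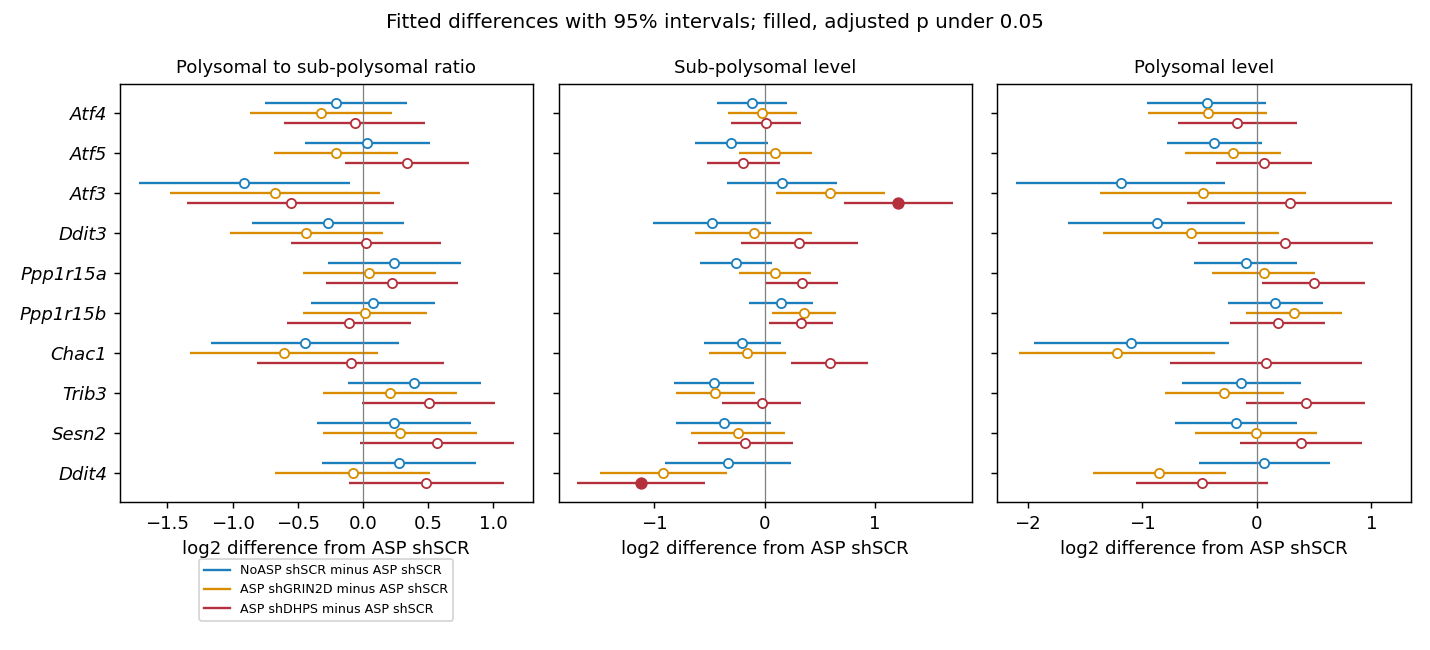
Fitted log2 differences from ASP shSCR with 95% intervals, for the polysomal to sub-polysomal ratio (left), the sub-polysomal level (middle) and the polysomal level (right). Filled points passed the adjusted p threshold of 0.05 over all genes. Only sub-polysomal Atf3 (1.21) and Ddit4 (−1.12) after Dhps silencing are filled.

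The rest of the pathway was described with the same fits, by lists of its steps. Of 12 mRNAs for the eIF2 kinases, eIF2 and its exchange factor eIF2B, 9 or 10 were higher in polysomes within each condition, where between 20.8% and 23.7% of all genes were, and 1 was lower (in ASP shDHPS). Eif2b3, an eIF2B subunit, had ratios of 1.70 in ASP shSCR and 2.04 in ASP shDHPS, and Eif2s1, the subunit that the kinases phosphorylate, of 1.31 and 1.11. Of 12 ATF4 targets in amino acid synthesis and one-carbon metabolism, 7 were higher in polysomes in ASP shSCR, 8 in both NoASP shSCR and ASP shGRIN2D, and 9 in ASP shDHPS, and none was lower in any. Their lead was Cth, of the transsulfuration pathway, at 1.96 in ASP shSCR, followed by asparagine synthetase Asns at 1.38 and Psat1 of serine synthesis at 1.13. All 12 had a fitted ratio above 0 in ASP shSCR, where that of Atf4 was −1.17, and 5 of them did not pass. Of the 8 amino acid transporters, Slc1a5 (0.97), Slc3a2 (0.91) and Slc1a4 (0.82) were higher in ASP shSCR and Slc7a5 (−0.94) was lower. These are the 4 past the threshold with the largest difference. In ASP shDHPS these 4 were Slc1a5 (1.47), Slc3a2 (1.36), Slc1a4 (1.14) and Slc6a9 (0.63), all higher.

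Among the 10 other regulators and secreted factors downstream of ATF4, the 4 past the threshold with the largest difference in ASP shSCR went both ways. In ASP shSCR, 18.9% of all genes were lower in polysomes and 20.8% higher, beside which the counts for the lists after this one stand. Jdp2 (−1.66, and −2.56 without replicate 1) and Eif4ebp1 (−1.17), which encode a transcriptional repressor and a translation inhibitor, were lower in polysomes in ASP shSCR, and Sqstm1 (1.29) and Herpud1 (1.29), of autophagy and of endoplasmic reticulum degradation, were higher. Among 10 genes of the other branches of the unfolded protein response, 5 were higher and 4 lower in ASP shSCR, with the chaperones Hsp90b1 (1.71), Pdia4 (1.66) and Hspa5 (1.54) among the higher and Edem1 (−0.97) among the lower. Of 9 immediate early genes 1 was higher there, Junb (1.05), and 1 lower, Egr1 (−0.69), whose call was lost without replicate 2 (−0.46, adjusted p = 0.101). Of 10 hypoxia response genes 3 were higher and 3 lower, with Adm at 2.07 and Pdk1 at −1.08.

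Few members of the pathway lists passed against ASP shSCR, as was so of all genes. In all 3 comparisons and in the ratio, the sub-polysomal and the polysomal level, 1 member of the pathway lists passed, Cebpb, which encodes a partner of ATF4 and CHOP and fell below polysomes after Dhps silencing by 0.71 (SE 0.19, adjusted p = 0.0469), where 1.41% of all genes passed. The Cebpb difference was −0.54 (adjusted p = 0.232) without ASP shSCR replicate 2, and its call was also lost without ASP shSCR replicate 1 or 4 or any one ASP shDHPS pellet (adjusted p from 0.0659 to 0.138). In the same comparison 3 epithelial keratins fell, Krt18 by 1.00 (adjusted p = 0.032), Krt14 by 0.78 (adjusted p = 0.0046) and Krt8 by 0.74 (adjusted p = 0.049). Without ASP shSCR replicate 2 these were −0.60 (adjusted p = 0.232), −0.76 (adjusted p = 0.0137) and −0.53 (adjusted p = 0.247), so Krt14 passed in both fits. The Krt18 and Krt8 calls were also lost when any one of the ASP shDHPS pellets was left out, and that of Krt8 without ASP shSCR replicate 1. The summed level of the 6 epithelial markers below polysomes was 1756 to 2228 CPM in ASP shDHPS and 1745 to 2152 CPM in ASP shGRIN2D, both below all ASP shSCR values, and 2214 to 3147 CPM in NoASP shSCR. None of the 6 passed after Grin2d silencing. The part of the epithelial markers in the other differences was not tested. None of the 12 eIF2 and eIF2B mRNAs, the 12 synthesis targets, the 8 transporters, the 10 genes of the other unfolded protein response branches, the 9 immediate early genes or the 10 hypoxia response genes passed. The median sub-polysomal difference of the synthesis targets after Dhps silencing was 0.05, and that of the transporters 0.27, against 0.01 for all genes.

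Was a low polysomal ratio shared by other mRNAs with uORFs? Of 9 other mRNAs with described uORFs, 4 passed as lower in polysomes in each condition, where 18.9% to 21.3% of all genes did, and 1 (ASP shDHPS) or 2 as higher, where 20.8% to 23.7% of all genes did. The lower ones included Amd1, an enzyme of polyamine synthesis, at −1.62 in ASP shSCR, and the higher ones Azin1, the antizyme inhibitor, at 0.99. Odc1, another enzyme of polyamine synthesis, was at −1.19 there (adjusted p = 0.0477). Its value was −2.09 (adjusted p = 1.42e-07) without replicate 1, in whose polysomal library the 9 mRNAs summed to 6174 CPM against 1406 to 1543 CPM in the other pellets, and its call was lost without replicate 2, 3 or 4 (adjusted p = 0.33, 0.328 and 0.197). Without the pellet term it was 0.54 (adjusted p = 0.476). The median of the 9 in ASP shSCR was −0.86 with all pellets, beside −0.44 for the 10. Without replicate 1 the median of the 10 was −0.74, and no such value is given for the 9. Over all 13361 genes with a coding transcript, the median ratio in ASP shSCR was 0.16 for 6807 genes without an upstream ATG, 0.05 for 4335 with uORFs that end before the coding region and −0.10 for 2133 with an overlapping uORF. In ASP shDHPS the same medians were 0.19, −0.08 and −0.18. Of the genes with an overlapping uORF, 17.2% lay below Atf4 and 13.1% below Atf5 in ASP shSCR. These classes are descriptions, since leader length and other transcript features were not matched.

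The genes that followed Atf4 most closely over the 16 pellets were named by the Pearson correlation of log2 ratios among 10908 genes. They were Zfp637 (r = 0.908), Rab31 (r = 0.908), Praf2 (r = 0.904), Timm23 (r = 0.904) and Cdkn2aipnl (r = 0.897). Within the group, Ddit3 came nearest (r = 0.885) and Ppp1r15b was farthest (r = −0.72). The pellets share the separation of fractions and the conditions, so these values are descriptions of 16 pellets without a test. The mean standardized sub-polysomal level of the 10 was followed most closely by Tbkbp1 (r = 0.835), Per1 (r = 0.830), Zbtb17 (r = 0.818), Map3k11 (r = 0.817) and Dusp1 (r = 0.803). That mean was highest in ASP shSCR replicate 2 (0.87) and ASP shDHPS replicate 3 (0.82) and lowest in NoASP shSCR replicate 1 (−0.87).

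Promoter sequence was available for 9 of the 10 from RefSeq (GRCm38.p6, 250 bases before to 50 bases after the start site), and Ppp1r15b was not matched. The letters TGATGNAA, the core of the element that ATF4 and C/EBP proteins bind as a pair, were searched on both strands and found in 3.97% of 32851 promoters. Atf3, Chac1 and Trib3 held a match. The cAMP response element TGACGTCA was found in 1.79% of promoters and, of the group, in Ppp1r15a. The matches are shown in the direction of the gene, with the matched letters or their reverse complement in capitals.
Atf3, chr1:191183427-191183452, minus strand: ttctcgcacTTGCATCAccaagtccg
Chac1, chr2:119351040-119351065, plus strand: tccctgccgTTGCATCActcctgcca
Trib3, chr2:152344030-152344055, minus strand: agctcaggtTTACATCAgccgggcgg
Ppp1r15a, chr7:45526264-45526289, minus strand: cctctccggTGACGTCAgcacagcgc
The Atf3 match lay 110 bases and the Chac1 match 193 bases before the start site, and the Trib3 match 14 bases after it. A match describes the letters in this window and says nothing of binding.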

How the data were processed

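Gene counts were used as the authors deposited them, not normalized. The authors trimmed reads of a stranded mRNA kit with Trim Galore (0.6.6), mapped them to GRCm39 with STAR (2.6.1), quantified them with Salmon (1.4.0), rounded the estimates and removed genes without expression in at least 3 of 4 replicates of any group. The deposited log2 differences, p values and gene set scores hold the study's own comparisons and were not used. Groups came from the sample labels. The members and lists were chosen with earlier results of these data known.

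Ratios and levels were tested with edgeR (4.0.16, quasi-likelihood test, two-sided, R 4.3.3) over 17757 genes, with Benjamini-Hochberg adjustment and a threshold of 0.05. The ratio model fitted every pellet's own level (16 coefficients) and, per condition, 1 polysomal to sub-polysomal ratio, with TMM factors over 32 libraries. Level models and CPM levels used the 16 libraries of a fraction, with TMM factors over those 16. SE is the log2 difference divided by the square root of F. Ratios per pellet used log2 CPM with a prior count of 2. Identical libraries numbered 0. The fits were also run on simulated data, with no outcome given here, and no result above rests on that run. Alternatives were DESeq2 (1.42.0), other size factors, a minimum of 10 counts, other sample sets and left-out pellets.

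Named genes were the 10 members, the silenced genes, up to 4 list members past the threshold with the largest difference, and the 5 genes most correlated with Atf4 or with the members' mean (mean of at least 50 counts). Leaders came from GENCODE M21 (GRCm38), another build than that of the counts, matched by symbol.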

Additional observations from a re-analysis of the deposited data

Results flagged for a closer look

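A single pellet lay far from the other 3 of its condition in 13 of 120 groups of 4 (10 mRNAs, 4 conditions, ratio and both levels), with a gap past Dixon's 95% critical value (levels on the log2 scale). Chance alone flags about 1 group in 20, or 6 of 120. In sub-polysomal ASP shSCR libraries, replicate 2 was apart for Ddit4 (217.7 CPM), Ddit3 (53.0 CPM) and Ppp1r15b (66.4 CPM), and replicate 4 for Atf3 (9.43 CPM). NoASP shSCR replicate 2 was apart for sub-polysomal Ddit4 (134.2 CPM) and polysomal Trib3 (30.3 CPM), and NoASP shSCR replicate 3 for the log2 ratios of Atf4 (−1.26) and Atf5 (−1.44). ASP shGRIN2D replicate 1 was apart for the log2 ratios of Ppp1r15a (−0.80) and Ppp1r15b (0.55) and for sub-polysomal Atf5 (303 CPM) and Ddit3 (19.4 CPM). ASP shDHPS replicate 1 was apart for polysomal Ddit4 (193.9 CPM). The Ddit4 and Ddit3 values of ASP shSCR replicate 2 bear on the Dhps comparison below polysomes, which is given with and without it.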

How the results depend on the processing

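In the ratio, 0 of the 10 mRNAs passed in any comparison with ASP shSCR, under each alternative run and each left-out pellet. Within conditions, Atf4, Atf5 and Ddit3 were lower in polysomes past the threshold under every alternative run, and Ddit4 was higher, except without the pellet term in ASP shSCR (0.71, adjusted p = 0.0699). Below polysomes after Dhps silencing, the Atf3 call held under every alternative. The Ddit4 call was lost by the DESeq2 Wald test (adjusted p = 0.0599) and in 5 of 8 fits with a pellet left out. It held under the other alternatives run, with −0.92 (adjusted p = 0.00829) in edgeR with a replicate block. Of 1550 values of the 10 mRNAs under alternatives, 1452 kept their direction and side of the threshold, 19 lost a call, 14 gained one and 65 changed sign, none of them past the threshold (Dhps and Grin2d are not counted here). Depth limited Atf3 the most, with a lowest count of 74, and Atf4 the least. The causes of the changes below were not tested.

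The count of genes past the threshold depended on the method. For the ratio after Dhps silencing, 37 genes became 0 with DESeq2 size factors, without the pellet term or with only the 2 conditions compared, 184 with TMM within each fraction, 266 with a minimum of 10 counts and 626 by DESeq2. Below polysomes DESeq2 called 1 gene without aspartate, 224 after Grin2d silencing and 651 after Dhps silencing. On polysomes it called 1, 73 and 554. Polysomal Grin2d silencing gave 7 genes with DESeq2 size factors, 6 with a minimum of 10 counts and 0 with only the 2 conditions, and polysomal Dhps silencing gave 1 with only the 2 conditions, where Dhps itself lost its call (−1.65, adjusted p = 0.108). Leaving out a pellet gave 0 (4 pellets, ASP shSCR replicate 4 among them) to 83 genes for the ratio after Dhps silencing. Below polysomes it gave 80 (without ASP shSCR replicate 2) to 370 genes and 1 to 2 of the 10 after Dhps silencing, and 23 (without ASP shGRIN2D replicate 4) to 62 genes after Grin2d silencing. On polysomes it gave 0 (3 pellets each) to 304 genes after Dhps silencing and to 98 after Grin2d silencing, both highest without ASP shSCR replicate 3. In NoASP shSCR, 5 to 6 of the 10 passed within the condition, in ASP shSCR 5 to 7 and in ASP shGRIN2D 6 to 7.

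Replicate numbers were shared across conditions, but same-numbered pellets did not deviate together throughout (24 pairs each, median correlation of deviations 0.17 in the ratio, 0.25 below polysomes and 0.36 on polysomes, lowest −0.27, −0.31 and −0.23, with 14, 18 and 16 pairs over 0.1). For pellets with different numbers the medians were −0.05, −0.08 and −0.11. The polysomal sums of the synthesis targets, the transporters and the epithelial markers were lowest in replicate 2 in every condition. The main fits did not treat same-numbered pellets as paired, by a rule that asked for every pair over 0.1. The rule is not a test of what same-numbered pellets share, and their medians were the higher ones in each quantity. The part of replicate number in the values was not tested. A replicate block over conditions gave 231 genes for the ratio after Dhps silencing, 195 and 758 below polysomes and 27 and 405 on polysomes after Grin2d and Dhps silencing. Of the 10 mRNAs it added 1 call, Chac1 below polysomes after Dhps silencing (0.60, adjusted p = 0.0164).

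Some values changed sign, and not all of them were near 0. Polysomal Atf3 in ASP shGRIN2D was −0.47 with all pellets and 0.36 without ASP shSCR replicate 1. Sub-polysomal Ddit3 in NoASP shSCR was −0.47 with all pellets and 0.051 without ASP shSCR replicate 2. With TMM within each fraction the signs turned for Atf5 −0.027 (ratio, NoASP shSCR), Ppp1r15a −0.017 (ratio, ASP shGRIN2D), Ppp1r15b −0.050 (ratio, ASP shGRIN2D) and Ddit3 −0.029 (ratio, ASP shDHPS). With a minimum of 10 counts the signs turned for Ppp1r15b −0.030 (ratio, ASP shGRIN2D), Ddit3 −0.014 (ratio, ASP shDHPS) and Sesn2 0.0068 (polysomal, ASP shGRIN2D). Without the pellet term the signs turned for Ddit4 0.11 (ratio, ASP shGRIN2D) and Chac1 0.031 (ratio within, ASP shSCR). With only the 2 conditions compared the signs turned for Ddit3 −0.020 (ratio, ASP shDHPS), Sesn2 0.055 (polysomal, ASP shGRIN2D) and Dhps 0.027 (polysomal, ASP shGRIN2D). With DESeq2 size factors the signs turned for Sesn2 0.010 (polysomal, ASP shGRIN2D) and Dhps 0.0058 (polysomal, ASP shGRIN2D). By DESeq2 the signs turned for Sesn2 0.0093 (polysomal, ASP shGRIN2D) and Dhps 0.0055 (polysomal, ASP shGRIN2D). When pellets were left out in turn, these differences from ASP shSCR ran through 0. On polysomes in ASP shDHPS they ran for Atf4 −0.29 to 0.13, Atf5 −0.047 to 0.27 and Chac1 −0.21 to 0.97. On polysomes in ASP shGRIN2D they ran for Atf3 −0.71 to 0.36, Dhps −0.17 to 0.15, Ppp1r15a −0.084 to 0.21 and Sesn2 −0.17 to 0.16. On polysomes in NoASP shSCR they ran for Ddit4 −0.22 to 0.28, Dhps −0.25 to 0.033, Grin2d −0.091 to 0.12, Ppp1r15a −0.24 to 0.052 and Trib3 −0.26 to 0.11. For the ratio in ASP shDHPS they ran for Atf4 −0.20 to 0.11, Chac1 −0.35 to 0.42, Ddit3 −0.14 to 0.35 and Ppp1r15b −0.20 to 0.0058. For the ratio in ASP shGRIN2D they ran for Ddit4 −0.28 to 0.11, Ppp1r15a −0.14 to 0.17 and Ppp1r15b −0.12 to 0.085. For the ratio in NoASP shSCR they ran for Atf5 −0.018 to 0.16, Chac1 −0.70 to 0.057, Ddit3 −0.43 to 0.038 and Ppp1r15b −0.029 to 0.14. The Atf3 ratio within ASP shSCR ran from −0.15 to 0.67. Below polysomes in ASP shDHPS they ran for Atf4 −0.043 to 0.081, Grin2d −0.20 to 0.23, Sesn2 −0.29 to 0.040 and Trib3 −0.12 to 0.20. Below polysomes in ASP shGRIN2D they ran for Atf4 −0.073 to 0.047, Ddit3 −0.25 to 0.44 and Dhps −0.13 to 0.034. Below polysomes in NoASP shSCR they ran for Atf3 −0.16 to 0.35, Ddit3 −0.64 to 0.051, Ddit4 −0.66 to 0.30 and Grin2d −0.38 to 0.014.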
